A study of Homo sapiens with 4 samples.

Results

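Collagen prolyl and lysyl modifying enzymes are the proteins that hydroxylate and cross-link collagen chains, and 10 of their genes were examined in A549 cells treated with embelin. They are the prolyl 4-hydroxylase alpha subunits P4HA1, P4HA2 and P4HA3, the lysyl hydroxylases PLOD1, PLOD2 and PLOD3, and the lysyl oxidases LOX, LOXL1, LOXL2 and LOXL4. Probes were assigned to a gene by the gene name in the scanner files or by a RefSeq transcript of the gene, which gave 15 of the 50238 probes on the array and 10 of the 17649 genes tested. All 10 genes passed the filter on dim probes. A549 cells are an established line from a human lung adenocarcinoma. Embelin, a plant product, is a benzoquinone that carries an alkyl side chain. The control group held 2 samples of untreated cells, and the embelin group held 2 samples exposed to 15 µM embelin, with RNA taken at 4 h in both groups. All cells had been moved to medium with less serum before treatment, and the sources do not say whether the untreated cells received the solvent. Each sample was hybridised to 1 single-colour array, and all 4 arrays lay on 1 slide read in 1 scan. The labels do not say whether samples with the same label came from separate cultures, so that p-values measure only the spread between these samples, which may be technical.

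Collagen chains are modified in the endoplasmic reticulum before they are secreted. Collagen prolyl 4-hydroxylases, tetramers of alpha subunits with protein disulphide isomerase, hydroxylate prolines and thereby stabilise the triple helix. Lysyl hydroxylases hydroxylate lysines that later take part in cross-links or carry sugars. Both kinds of enzyme need oxygen, 2-oxoglutarate, iron and ascorbate. Lysyl oxidases are secreted copper enzymes that oxidise lysines outside the cell and so start the cross-links of collagen and elastin, and several genes of all 3 families are known targets of hypoxia-inducible factors.

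Some of the probes are shown first, since each value that follows is the brightness of such a 60-base oligonucleotide. The files mark their genome positions as unmapped, so no coordinates are given for them. The probe of LOX and that of P4HA1 are the only ones for these genes, and those of P4HA2 and PLOD2 are further probes that are reported beside the one standing for the gene.
LOX probe: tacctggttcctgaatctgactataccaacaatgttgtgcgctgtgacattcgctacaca
P4HA1 probe: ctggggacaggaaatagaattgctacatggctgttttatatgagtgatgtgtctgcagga
P4HA2 probe: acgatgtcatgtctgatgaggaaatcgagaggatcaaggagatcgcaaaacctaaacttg
PLOD2 probe: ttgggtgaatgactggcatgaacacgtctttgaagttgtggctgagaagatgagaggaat

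Promoters are shown for the 3 genes with ACGTG, a core bound by hypoxia-inducible factors, and for P4HA2 and LOXL1, which lack it. Sequences are from RefSeq (GRCh38.p14). A window of 300 bases, from 250 before to 50 after the start, was at hand for 8 of the 10 genes. Those of P4HA3 and LOXL2 were not at hand and were not searched. Each promoter shown is printed 5′ to 3′ along the gene for the 250 bases before the start. Capitals mark where ACGTG or GCGTG was read on either strand.
LOX, chr5:122078260-122078509, minus strand: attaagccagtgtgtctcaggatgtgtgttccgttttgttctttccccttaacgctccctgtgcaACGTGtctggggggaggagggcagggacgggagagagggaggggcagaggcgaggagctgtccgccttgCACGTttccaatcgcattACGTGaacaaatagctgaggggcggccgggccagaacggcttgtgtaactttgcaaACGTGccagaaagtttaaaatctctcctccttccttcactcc
P4HA1, chr10:73096867-73097116, minus strand: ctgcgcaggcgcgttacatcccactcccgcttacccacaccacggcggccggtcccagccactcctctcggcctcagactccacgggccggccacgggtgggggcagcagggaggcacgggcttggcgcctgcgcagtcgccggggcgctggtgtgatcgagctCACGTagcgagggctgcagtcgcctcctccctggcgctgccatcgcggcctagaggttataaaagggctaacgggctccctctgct
PLOD2, chr3:146161185-146161434, minus strand: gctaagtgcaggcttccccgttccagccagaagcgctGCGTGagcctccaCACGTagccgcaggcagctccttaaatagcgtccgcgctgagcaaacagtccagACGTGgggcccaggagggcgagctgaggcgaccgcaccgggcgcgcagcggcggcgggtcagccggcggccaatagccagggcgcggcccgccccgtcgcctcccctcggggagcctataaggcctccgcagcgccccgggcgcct
P4HA2, chr5:132227092-132227341, minus strand: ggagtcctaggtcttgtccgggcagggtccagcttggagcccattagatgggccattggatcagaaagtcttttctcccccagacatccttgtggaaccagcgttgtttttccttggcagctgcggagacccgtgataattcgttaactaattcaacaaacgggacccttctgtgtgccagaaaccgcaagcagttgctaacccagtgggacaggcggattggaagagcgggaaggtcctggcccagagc
LOXL1, chr15:73926212-73926461, plus strand: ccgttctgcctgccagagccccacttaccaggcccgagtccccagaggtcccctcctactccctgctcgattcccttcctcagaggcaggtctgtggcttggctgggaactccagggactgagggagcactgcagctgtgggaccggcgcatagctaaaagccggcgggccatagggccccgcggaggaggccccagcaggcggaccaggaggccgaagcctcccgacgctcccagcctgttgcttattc
The window of LOX held ACGTG 4 times, at 185, 116, 98 and 42 bases before the start. The window of P4HA1 held it 1 time, 86 bases before the start. PLOD2 held it 2 times, 200 and 146 bases before the start, and GCGTG 1 time, 213 bases before the start. P4HA2 and LOXL1 held neither. Among all 35116 promoter windows of the same length, 21.4% held ACGTG and 36.5% held GCGTG. PLOD1, whose values did not separate between the groups, held GCGTG 2 times, and PLOD3 and LOXL4 held neither. LOX has further annotated starts inside the gene, whose windows held both. TGATGNAAN, the composite element read by ATF4 with C/EBP proteins, was found in none of the windows of these genes and in 3.61% of all windows. These matches describe the letters in the windows and do not mark bound sites.

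Between 50.3 and 66.7% of the 50238 probes per array passed the scanner software's test of being well above background, and control 1 and embelin 2 had the higher shares (66.7 and 66.4%) while control 2 and embelin 1 had the lower ones (50.3 and 51.2%). No spot was saturated. Across 17298 genes Pearson's r was 0.973 between the control arrays, 0.972 between the embelin arrays and 0.926 to 0.968 between arrays of different groups. On the slide, control 1 and control 2 took positions 4 and 1, with embelin 1 and embelin 2 at positions 2 and 3 between them. Of 9 markers of A549 cells and epithelium, 9 were well above background on every array, with summed signals of 847514 and 883725 in controls and 756261 and 768728 with embelin. None of 3 endothelial markers was well above background on all arrays. Of 7 fibroblast markers 2 were well above background on all arrays and DCN, a defining one, on none, with summed signals of 1635 and 2081 in controls against 2265 and 1348 with embelin. These sums include markers that did not pass the filter on dim probes. All samples are labelled as A549 cells, a single line, and in bulk RNA fewer cells and less RNA per cell cannot be told apart.

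LOX, P4HA1 and P4HA2 had the largest differences between embelin and control. P4HA1 and P4HA2 had 2.70-fold and 2.38-fold higher signal. LOX had 8.26-fold higher signal, or 2.67-fold after normexp background correction (offset 50), and 1 of its 2 control values was not well above background. P4HA3, PLOD2, LOXL1 and LOXL2 had values above both controls on every embelin array that gave one, at less than 2-fold. PLOD1 and PLOD3 lay near 0 on the log2 scale, and LOXL4 had lower values with embelin. None of the 10 genes passed the test after adjustment over all genes, so none is called changed. Of all genes tested, limma called 1.25% higher and 0.561% lower at an adjusted p below 0.05. At an unadjusted p below 0.05, 6 of the 10 enzyme genes were higher, against 8.36% of all genes, and 1 was lower, against 11.1%. Without embelin 2 P4HA1 could not be fitted, and the log2 fold changes of P4HA3 and PLOD2 were 0.44 and 0.43. Without embelin 1 those of P4HA3 and PLOD2 were 0.99 and 0.77. LOXL4, the lower one, ran from -0.78 to -0.56 as single arrays were left out. By the methods' t-test without adjustment 2 of the 10, LOX and P4HA2, were higher at the 2-fold threshold of the study, against 3.0% of all genes, and 0 were lower, against 2.69%. After Benjamini-Hochberg adjustment of that test 0 passed. At least 2-fold higher were 3 of the 10, against 6.66% of all genes, and 0 were at least 2-fold lower, against 5.95%. In 7 of the 10 the embelin values lay above both controls, as in 21.4% of all genes, and in 2 they lay below both, as in 30.8%. LOX and LOXL1 passed the filter on dim probes only through the embelin arrays, where they were high. Without them, 4 of 8 were higher and 1 lower at an unadjusted p below 0.05, 2 were at least 2-fold higher, and embelin values lay above both controls in 5 and below both in 2. The shares above are over all genes tested, some of which also passed through 1 group only. In the fit to probes well above background on all 4 arrays, 5 of the 8 were higher and 1 lower at an unadjusted p below 0.05. Among all 15542 genes of that fit, 1338 were higher and 1960 lower. The median log2 fold change was 0.68 over the 10 enzyme genes, 0.62 over these 8 and -0.06 over all genes tested. Without embelin 2 the medians were 0.43 over the enzyme genes other than P4HA1 and -0.11 over all genes. Without embelin 1 they were 0.94 over the 10 enzyme genes and -0.03 over all genes.

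**Figure D1:**
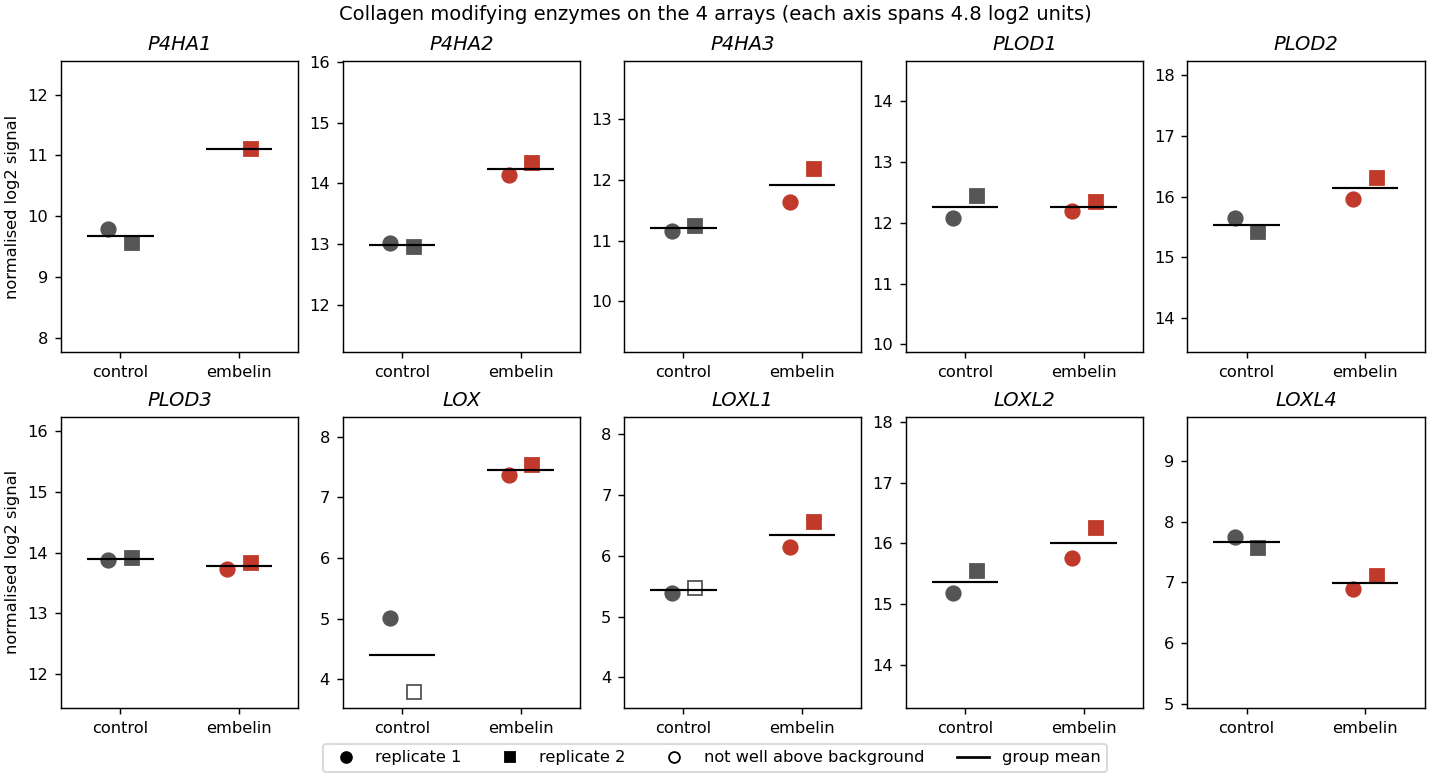
Normalised log2 signal (75th percentile shift) of the probe standing for each of the 10 enzyme genes, with 1 point per array, circles for replicate 1, squares for replicate 2 and lines for group means. Each axis spans the same number of log2 units but starts at its own level, since levels of different probes cannot be compared. LOX has its control values at 5.01 and 3.79 and its embelin values at 7.37 and 7.53, whereas the PLOD1 points of both groups lie among each other.

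Prolyl 4-hydroxylase alpha subunits carry the catalytic site of the enzyme. P4HA2, an alpha subunit active in bone and cartilage, gave normalised log2 signals of 13.02 and 12.96 in controls and 14.15 and 14.34 with embelin. All embelin values lay above both controls, and the gap was several times the spread within either group (12.99 ± 0.05 against 14.24 ± 0.13, SD, n = 2 each). For this probe the log2 fold change came to 1.25 (SE 0.17, 95% interval 0.78 to 1.72, limma adjusted p = 0.0589). The second probe of P4HA2, shown above, read 10.68 and 11.09 in controls and 11.86 and 12.40 with embelin, also a log2 fold change of 1.25. Both probes therefore separated the groups by the same amount, although the second had the wider spread.

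P4HA1, the alpha subunit found in most cell types, read 9.79 and 9.56 in controls and 11.11 on embelin 2. The spot on embelin 1 was marked as non-uniform by the scanner software and was left out of the fit, so that the embelin group rests on 1 array. Kept, that spot would read 11.50, on the same side of the controls. The fitted log2 fold change was 1.43 (SE 0.25, 95% interval 0.67 to 2.19, limma adjusted p = 0.115) without the spot, and 1.62 in a fit to the authors' table of probe values, which includes the spot. No other probe of P4HA1 was assigned.

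P4HA3, an alpha subunit with a narrower expression, read 11.15 and 11.25 in controls and 11.64 and 12.19 with embelin. The embelin arrays differed from each other by more than the lower of them differed from the controls. The log2 fold change was 0.71 (SE 0.25, 95% interval 0.04 to 1.39, limma adjusted p = 0.239). Its other probe read 8.79 and 9.78 in controls and 10.46 on embelin 2, with embelin 1 left out as an outlier spot, a log2 fold change of 1.18. The median log2 fold change of the 3 alpha subunits was 1.25.

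Among the lysyl hydroxylases only PLOD2 had embelin values above both controls. PLOD2, which hydroxylates lysines in the telopeptides that form stable cross-links, read 15.65 and 15.42 in controls and 15.97 and 16.31 with embelin. Both embelin values lay above both controls, by a small margin for embelin 1. The log2 fold change was 0.60 (SE 0.21, 95% interval 0.02 to 1.18, limma adjusted p = 0.243). A further probe read 14.95 and 14.73 in controls and 15.42 and 15.69 with embelin, a log2 fold change of 0.71. The probe printed above read 15.08 and 14.03 in controls and 15.38 and 15.26 with embelin, a log2 fold change of 0.76. All 3 probes of PLOD2 thus had their embelin values above both controls, and the printed one had its control values furthest apart.

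PLOD1, which hydroxylates lysines in the helical part of collagen, read 12.08 and 12.45 in controls and 12.19 and 12.34 with embelin. The embelin values lay between those of the controls, and the 95% interval of the log2 fold change ran from -0.57 to 0.57 (limma adjusted p = 0.999). PLOD3, which adds sugars to hydroxylysine besides hydroxylating lysine, read 13.88 and 13.91 in controls and 13.73 and 13.83 with embelin. Its embelin values lay below both controls, with a log2 fold change of -0.11 (SE 0.16, 95% interval -0.55 to 0.33, limma adjusted p = 0.766). The intervals of both genes leave out a 2-fold difference in either direction. The median log2 fold change of the 3 lysyl hydroxylases was -0.00.

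LOX, the founding lysyl oxidase, had the largest difference of the 10 genes. It read 5.01 and 3.79 in controls and 7.37 and 7.53 with embelin, and the value of control 2 was not well above background. The embelin arrays were close to each other and far above both controls, which were themselves more than 1 log2 unit apart (4.40 ± 0.86 against 7.45 ± 0.11, SD, n = 2 each). Its log2 fold change was 3.05 (SE 0.45, 95% interval 1.81 to 4.29, limma adjusted p = 0.0665), an 8.26-fold difference with an interval of 3.50-fold to 19.5-fold. Only 1 of the 2 control arrays measured LOX above background. The size of its difference depends on how background is handled, and it was 1.42 on the log2 scale after normexp correction (limma adjusted p = 0.0203). Between embelin 2 and control 1, the arrays with the higher shares of probes above background, the log2 difference was 2.52. Without control 2 the fitted value was 2.44, and control 2 alone gives no usable size. The summed signal of the fibroblast markers was 2265 and 1348 with embelin, above and below both controls (1635 and 2081), and its part in the LOX values was not tested. Only 3 of these 7 markers passed the filter on dim probes, and the sum counts the others too.

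LOXL1, a lysyl oxidase tied to elastin, also lay near background. It read 5.39 and 5.48 in controls, the latter not well above background, and 6.15 and 6.55 with embelin. Both embelin values lay above both controls, with a log2 fold change of 0.92 (SE 0.21, 95% interval 0.34 to 1.50, limma adjusted p = 0.127). After normexp correction it was 0.48. Between embelin 2 and control 1, where both values were well above background, the log2 difference was 1.16.

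LOXL2, which cross-links basement membrane collagen, read 15.19 and 15.54 in controls and 15.76 and 16.25 with embelin. Embelin 1 was only slightly above control 2. The log2 fold change was 0.64 (SE 0.26, 95% interval -0.08 to 1.36, limma adjusted p = 0.296). The log2 difference was 1.06 between embelin 2 and control 1, the arrays with the higher shares of probes above background. It was 0.22 between embelin 1 and control 2, which had the lower shares.

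LOXL4, another LOXL2-like oxidase, was the only one of the 10 genes at an unadjusted p below 0.05 in the downward direction. It read 7.75 and 7.58 in controls and 6.89 and 7.10 with embelin, so that both embelin values lay below both controls. The log2 fold change was -0.67 (SE 0.18, 95% interval -1.17 to -0.17, limma adjusted p = 0.170), a signal 1.59-fold lower. The second probe of LOXL4 read 5.59 and 6.04 in controls and 5.48 and 5.97 with embelin, with embelin 1 not well above background. Its groups overlapped, with a log2 fold change of -0.09, so that the probes of LOXL4 did not give the same size. The median log2 fold change of the 4 lysyl oxidases was 0.78. It counts LOX and LOXL1, which passed the filter on dim probes only through the embelin arrays. LOXL2 and LOXL4, which did not depend on that, had 0.64 and -0.67.

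**Figure D2:**
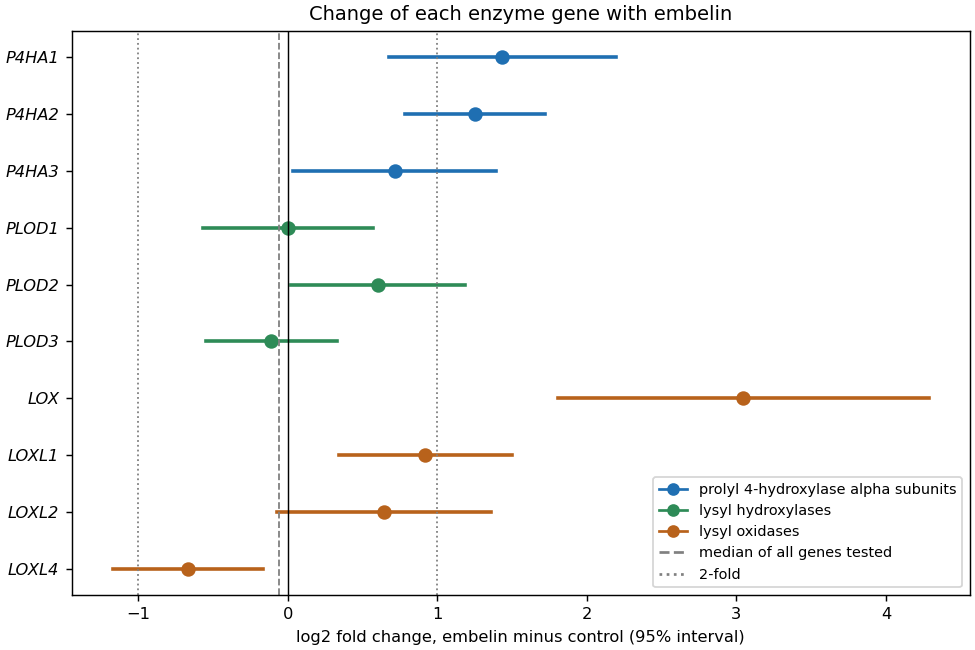
Log2 fold change (embelin minus control) of each enzyme gene, with points for the limma estimate and bars for its 95% interval, coloured by family. The dashed line is the median of all genes tested and the dotted lines mark 2-fold. The interval of LOX runs from 1.81 to 4.29, those of P4HA1 and P4HA2 lie above 0, those of PLOD1 and PLOD3 span 0, and that of LOXL4 lies below 0.

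**Figure D3:**
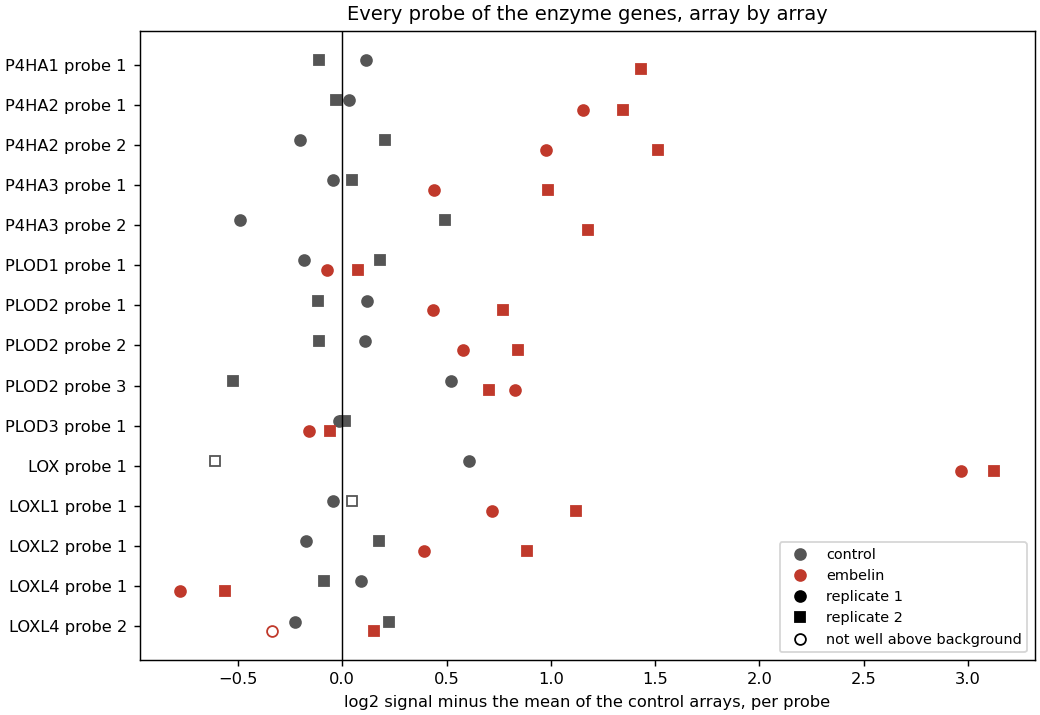
Log2 signal of each of the 15 probes minus the mean of its control arrays, with grey points for controls, red for embelin and open points for values not well above background. Probes of P4HA2 and of PLOD2 lie on the same side of their controls, P4HA1 and P4HA3 each have a probe with 1 embelin value left out, and the second LOXL4 probe has overlapping groups.

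Genes that act with these enzymes are described by list. In a list of 14 hydroxylation and folding partners 12 were tested and 0 passed after adjustment in either direction, with a median log2 fold change of -0.30. At an unadjusted p below 0.05, 0 were higher and 2 were lower, against 8.36% and 11.1% of all genes. P4HB, the beta subunit of the collagen prolyl 4-hydroxylases, had a log2 fold change of 0.14. It was chosen after its values were seen. FKBP14, a prolyl isomerase of the endoplasmic reticulum, read 10.66 and 10.66 in controls and 9.64 and 10.16 with embelin, a log2 fold change of -0.76 (limma adjusted p = 0.205). P3H4, a partner of lysyl and prolyl 3-hydroxylases also called SC65, had -0.63 (limma adjusted p = 0.216). The paralogue LOXL3 and the collagen galactosyltransferase COLGALT2 were in this list and did not pass the filter on dim probes.

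Of 17 genes for procollagen export and trimming 12 were tested and 0 passed after adjustment. At an unadjusted p below 0.05 there were 0, against 8.36% of all genes higher and 11.1% lower. Their log2 fold changes had a median of -0.15. The furthest from 0 was PREB, an exchange factor for export from the endoplasmic reticulum, at -0.68 (limma adjusted p = 0.314), followed by MIA2, an export receptor, at -0.29. Of 6 genes that supply iron, copper or ascorbate 4 were tested and 0 passed after adjustment, with a median of -0.11. SLC23A2, an ascorbate transporter, had a log2 fold change of -0.63 (limma adjusted p = 0.222). It was the 1 gene of this list at an unadjusted p below 0.05, against 11.1% of all genes lower and 8.36% higher. TFRC, the transferrin receptor, had 0.30.

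Of 15 collagen and elastin substrates 10 were tested, and 0 passed after adjustment. At an unadjusted p below 0.05, 3 were higher, against 8.36% of all genes, and 0 were lower, against 11.1%. Their median log2 fold change was 0.09. COL1A1, the alpha 1 chain of type I collagen and also one of the fibroblast markers above, read 6.38 and 6.27 in controls and 7.56 and 7.69 with embelin. Both embelin values lay above both controls, with a log2 fold change of 1.30 (SE 0.17, limma adjusted p = 0.0547). THY1, the other fibroblast marker well above background on all 4 arrays, went the other way, with a log2 fold change of -0.52 (limma adjusted p = 0.250). COL7A1, the chain of anchoring fibrils, had a log2 fold change of 0.73 (limma adjusted p = 0.186).

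The other 2-oxoglutarate hydroxylases held the only call among the 43 related genes tested from lists totalling 57. EGLN3, a prolyl hydroxylase of hypoxia-inducible factors that is itself induced by them, read 9.17 and 9.41 in controls and 12.02 and 12.02 with embelin. It rose by 2.73 on the log2 scale (SE 0.18, limma adjusted p = 0.0233). Leaving out any 1 array ended this call, with adjusted p from 0.0600 without control 1 to 0.172 without embelin 1 and log2 fold changes from 2.61 to 2.85. The call also ended with the replicate block (0.0699), slide position (0.0898), the methods' t-test (0.158) and no filter on dim probes (0.330). EGLN1, the main oxygen sensor of the same family and chosen after its values were seen, read 11.96 and 11.99 in controls and 13.15 and 13.14 with embelin, a log2 fold change of 1.17 (limma adjusted p = 0.0569). EGLN2 had -0.28 and P4HTM, a transmembrane prolyl 4-hydroxylase listed under an older name, had -0.30, both also chosen after their values were seen. Over all related lists 1 gene passed in the upward direction and 0 in the downward one, and the median log2 fold change was -0.09.

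**Figure D4:**
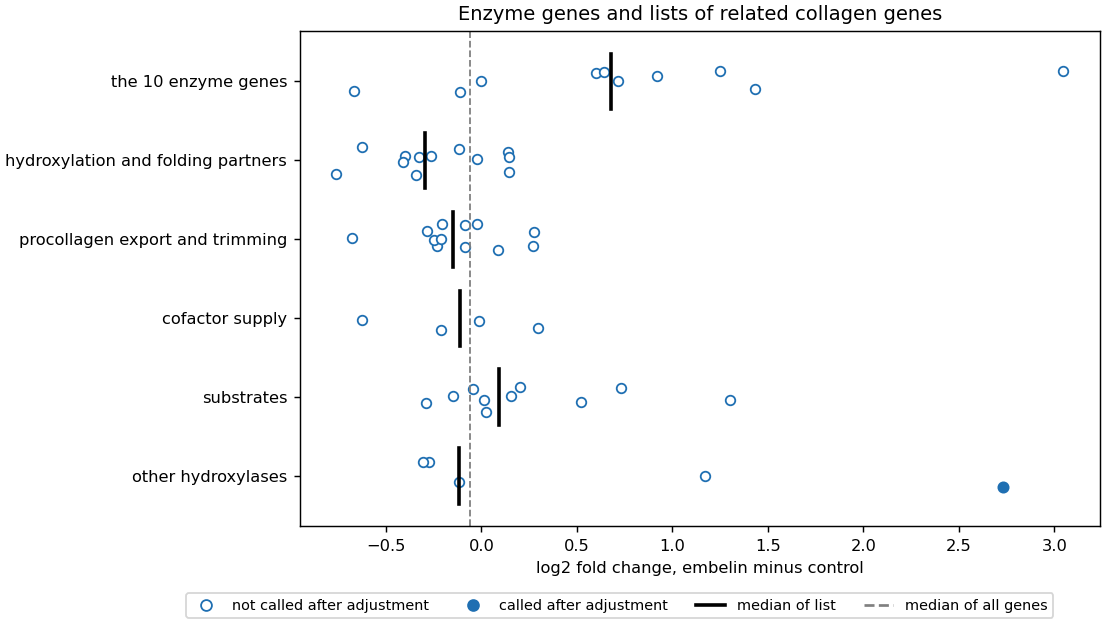
Log2 fold change (embelin minus control) of the 10 enzyme genes and of the tested genes in 5 lists of related genes, with 1 circle per gene, filled where limma's adjusted p was below 0.05, black bars for list medians and a dashed line for the median of all genes. The median of the enzyme genes is 0.68, or 0.43 without embelin 2, where P4HA1 could not be fitted. Those of the related lists run from -0.30 to 0.09, and EGLN3 at 2.73 is the filled circle.

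The genes whose values over the 4 arrays, after subtraction of the control mean, lay closest to those of P4HA2 by Euclidean distance among 17297 genes were CDKN1A, a cyclin-dependent kinase inhibitor (distance 0.0417), TNF, a cytokine (0.0595), and IL4R, a cytokine receptor subunit (0.0618). These had log2 fold changes of 1.25, 1.25 and 1.23. For P4HA3 they were KCNF1, a potassium channel subunit (0.0429), SFN, also called 14-3-3 sigma (0.0593), and NAMPT, an enzyme of NAD synthesis (0.0690). P4HA2 and P4HA3 were used here because they had the largest differences among the enzyme genes with a usable value, well above background, on all 4 arrays. P4HA1, with a larger difference than either, was left out because its spot on embelin 1 was marked as an outlier. The distances are a description over 4 arrays.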

How the data were processed

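RNA from 2 control and 2 embelin samples was labelled with Cy3 and hybridised to single-colour Agilent arrays. The authors deposited intensities from the scanner software (Feature Extraction 10.7.3.1, per the file headers), background-subtracted and not normalized between arrays, and a table of the same intensities averaged per probe, also linear and not normalized between arrays, which was scaled here like the scanner files. The study's methods name a 75th percentile shift, a 2-fold threshold and a t-test. Here each array was scaled to a common 75th percentile, with values below 1 set to 1, and log2 was taken. Outlier spots (47 to 743 per array) were left out and spots of a probe averaged. Of 50238 probes, 28595 were named by accession in RefSeq, 2341 through another probe of the same name and 19302 kept the name in the files. Kept were 26146 probes that were well above background on each array of 1 group or of both, and the brightest stood for its gene. Groups were compared with limma 3.58.1 in R 4.3.3 (lmFit, eBayes, prior of 2.16 degrees of freedom), with Benjamini-Hochberg adjustment over 17649 genes. The fit was also run on simulated data with normal noise. The changes planted there were all larger than those of the enzyme genes other than LOX, so that run says nothing on smaller ones. The median SD over genes was 0.21 (log2), and precision is limited by the number of arrays.

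The enzyme genes and the lists were chosen with earlier results of these data known. Named were all 10 genes with every probe, the called genes of each list (up to 5) or otherwise the 2 furthest from 0 on the log2 scale with all 4 arrays well above background, and the 3 genes most like each of 2 enzyme genes. Alternatives were normexp (offset 50), quantile normalization, the deposited table, no filter, a filter on all 4 arrays, eBayes with trend and robust, the methods' t-test, the replicate number as a block, slide position, the mean over probes, each probe alone, and leaving out each array. A block for slide or scan was not run, since all arrays share both. Promoter windows and motifs were read from RefSeq tables of GRCh38.p14. Copper transporter ATP7A was not analysed here.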

Additional observations from a re-analysis of the deposited data

How the results depend on the processing

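Of the 10 enzyme genes, 9 kept their direction under each alternative that could be fitted, and PLOD1, near 0, turned to 0.016 with quantile normalization and ran from -0.18 to 0.18 as single arrays were left out (0.18 without control 2, 0.07 without embelin 1). The number of enzyme genes called higher after adjustment was 0 as reported, against 221 of 17649 among all genes. It was 2 with normexp correction (all genes 422 of 17649) and 1 with the filter on all 4 arrays (419 of 15542). With trend and robust eBayes it was 3 (566 of 17649). With normexp these were LOX at 1.42 (log2, adjusted p = 0.0203) and P4HA2 at 1.25 (0.0336). With the filter on all 4 arrays, which drops LOX and LOXL1, it was P4HA2 at 1.25 (0.0291). With trend and robust eBayes they were LOX at 3.05 (0.0412), P4HA1 at 1.43 (0.0369) and P4HA2 at 1.25 (0.00697). At an unadjusted p below 0.05, the 6 higher enzyme genes became 3 with the methods' t-test and 3 to 7 as single arrays were left out, and the 1 lower one, LOXL4, became 0 without the filter, with trend and robust eBayes and with the mean over probes, and 0 to 1 as single arrays were left out. These unadjusted counts and the 2-fold counts were chosen after seeing the data. By the methods' t-test 1170 of all 17649 genes were higher and 1585 lower at an unadjusted p below 0.05. Fits with an array left out have 1 array in a group, so their counts of enzyme genes cannot be weighed against all genes.

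Over all genes, 221 were called higher and 99 lower, against 422 and 278 with normexp, 419 and 345 with the filter on all 4 arrays, 566 and 495 with trend and robust eBayes, and 142 and 44 from the deposited table. Quantile normalization called 63 lower, the mean over probes 56, and each probe on its own 65. Without the filter, with the methods' t-test, with slide position and with the replicate number as a block, 0 were called in either direction, as when any 1 array was left out (0 to 0). At an unadjusted p below 0.05 these fits had 1106 higher and 1237 lower without the filter, 1170 and 1585 by the t-test, 1314 and 1739 with position, and 1673 and 2070 with the block. The 1 call in the related lists became 2 with normexp, 3 with the filter on all 4 arrays, 2 with trend and robust eBayes, and 0 without the filter, by the t-test, with position, with the block and when any 1 array was left out. The cause of these differences was not tested.

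The labels do not say that replicate numbers pair the samples, and deviations from group means correlated at 0.175 between arrays of the same number over 17298 genes. With the replicate block LOX had an adjusted p of 0.106 and P4HA2 of 0.107, and 0 enzyme genes were called. A lone array left in a group is taken to vary as much as the rest, and P4HA1 could not be fitted without embelin 2. LOX and LOXL1 were well above background on 1 of 2 control arrays, and the size of their differences depends on how background is handled.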
